A study of Homo sapiens and Mus musculus with 12 samples.

Results

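The messenger RNA of 5 interferon regulatory factors (IRFs) was followed in mouse and human natural killer (NK) cells in which the histone methyltransferase EHMT2 was deleted or inhibited. The members are the rows with the symbols Irf1, Irf2, Irf4, Irf7 and Irf8 in the mouse count table and IRF1, IRF2, IRF4, IRF7 and IRF8 in the human one, which makes 10 of 40325 rows. All 10 passed the filter on low counts. The mouse NK cells were sorted from spleens of C57BL/6J mice aged 8 to 12 weeks. WT mice carried Ehmt2 flox/flox alleles. KO mice carried the same floxed alleles and Ncr1 iCre, a Cre recombinase driven from the locus of the NKp46 receptor, so deletion is limited to cells that express or have expressed Ncr1. The human cells were NK92MI, an NK lymphoma line engineered to make its own interleukin-2, treated with the EHMT2 inhibitor BIX-01294 (BIX) or with its solvent DMSO. There were 3 libraries in each of the 4 groups. The labels do not say whether libraries came from separate mice or cultures, so p-values measure the spread between libraries, which may be technical. They also give no dose or duration for the NK92MI treatment; the study states a dose and duration for its functional assays on these cells, without naming the libraries.

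IRFs are transcription factors that share a DNA-binding domain and recognise the interferon-stimulated response element (ISRE). IRF1 activates interferon-stimulated and antigen presentation genes, and IRF2 binds the same element and can act as its antagonist; both are needed for normal NK cell development. IRF7 drives type I interferon production downstream of nucleic acid sensors. IRF4 and IRF8 are the lymphoid and myeloid members, which bind composite elements with the ETS factors PU.1 (Spi1) and Spi-B or with BATF and JUN proteins. EHMT2 places dimethyl marks on lysine 9 of histone H3, a mark of repressed chromatin.

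The mouse libraries held 25891680 (WT replicate 2) to 37438868 counts and the human libraries 16579469 to 17165446. Levels are given as CPM, the reads of a gene scaled to a library of fixed size after TMM normalization. A gene was called higher or lower at a Benjamini-Hochberg adjusted p under 0.05 in edgeR's quasi-likelihood test over all tested genes, and the stricter threshold of the study (adjusted p under 0.01 and an absolute log2 fold change over 0.5) was counted beside it. Ehmt2 itself was at 171, 143 and 137 CPM in KO and 275, 284 and 285 CPM in WT (log2 fold change −0.91, SE 0.10, adjusted p = 0.0162, edgeR), although the genotype label of the KO samples reads Ezh2-KO. Ezh2 had a log2 fold change of −0.23 (adjusted p = 0.116). All 12 NK cell markers were counted in both species, and markers of other splenic cells were also counted in the mouse libraries, as described with Irf4 and Irf8.

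In mouse NK cells, Irf1 rose in KO, whereas Irf2, Irf4, Irf7 and Irf8 did not pass the test. This is 1 of 5 members called at an adjusted p under 0.05, against 11.9% of all tested genes called in either direction, 4.44% higher and 7.43% lower. DESeq2 called 3 of 5, Irf1, Irf4 and Irf8, among 1098 higher and 1989 lower genes of the 13189 fitted. Fitted without KO replicate 2 or without KO replicate 3, edgeR called no gene in either direction. Each mouse call by edgeR under TMM with all libraries therefore rests on both of those. It called 35 higher and 64 lower genes without WT replicate 1, and 6 and 8 without WT replicate 3. The counts were 694 and 1338 without KO replicate 1, and 1433 and 2097 without WT replicate 2. DESeq2 was not fitted with libraries left out. The study applied its threshold to DESeq2 results. At this threshold edgeR called 0 of 5 members and 0% of tested genes. Without adjustment, 3 of 5 members had p under 0.05 in edgeR, as did 2080 higher and 2639 lower genes of the 13189 tested. At the threshold of the study DESeq2 called 2 members among 1495 genes and limma-voom 0 members among 3 genes, each with 13189 genes fitted. The KO and WT ranges were separate for 2 of 5 members, Irf1 and Irf8, against 38.5% of tested genes.

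Irf1, the activator of the pair, spans bases 53770014 to 53778374 of chromosome 11 (GRCm38, plus strand). Its level was 379, 366 and 327 CPM in KO replicates 1, 2 and 3 and 229, 273 and 240.0 CPM in WT replicates 1, 2 and 3. Every KO library was above every WT library. Irf1 was 1.44-fold higher in KO on TMM-scaled counts (log2 fold change 0.53, SE 0.10, 95% confidence interval 0.30 to 0.77, adjusted p = 0.0324, edgeR), but scaling the libraries to a list of NK cell markers turned its log2 fold change to −0.28 (adjusted p = 0.317). That scaling moved the median of all tested genes from 0.01 to −0.82. It shifts all genes together, so here and below a gene whose rise under TMM was smaller than that shift turns negative. The marker list includes Il2rb and Prf1, whose mRNA the study reports as raised in KO by RT-qPCR. Relative to the median gene, Irf1 differed by 0.52 under TMM and by 0.54 under the marker scaling. The call was lost without KO replicate 2 (adjusted p = 0.135), KO replicate 3 (0.131), WT replicate 1 (0.0877) or WT replicate 3 (0.121), and adjusted p was 0.00646 without WT replicate 2. An antisense-oriented coding gene, Gm17334, overlaps 907 bases of Irf1 in GENCODE M21, and whether the counting used strand is not stated.

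Irf2, the competitor of Irf1 at the ISRE, spans bases 46739732 to 46847458 of chromosome 8 (plus strand). It was at 137, 143 and 158 CPM in KO and at 145, 143 and 148 CPM in WT. The 2 groups overlapped and their means, 146 ± 10.7 and 145 ± 2.63 CPM (SD, n = 3), were nearly the same. The log2 fold change was 0.01 (SE 0.08, 95% confidence interval −0.18 to 0.19, adjusted p = 0.958), with a sign that depended on the scaling. The ratio of Irf1 to Irf2 CPM within a library was 2.07 to 2.76 in KO and 1.58 to 1.90 in WT, and this ratio does not depend on the scaling of the library.

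Irf7, the amplifier of type I interferon production, spans bases 141262706 to 141266481 of chromosome 7 (minus strand). Its CPM was 202, 190.4 and 175 in KO and 218, 184 and 204 in WT. The groups overlapped, and the log2 fold change of −0.10 (SE 0.10, 95% confidence interval −0.32 to 0.13) had an adjusted p of 0.499.

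**Figure D1:**
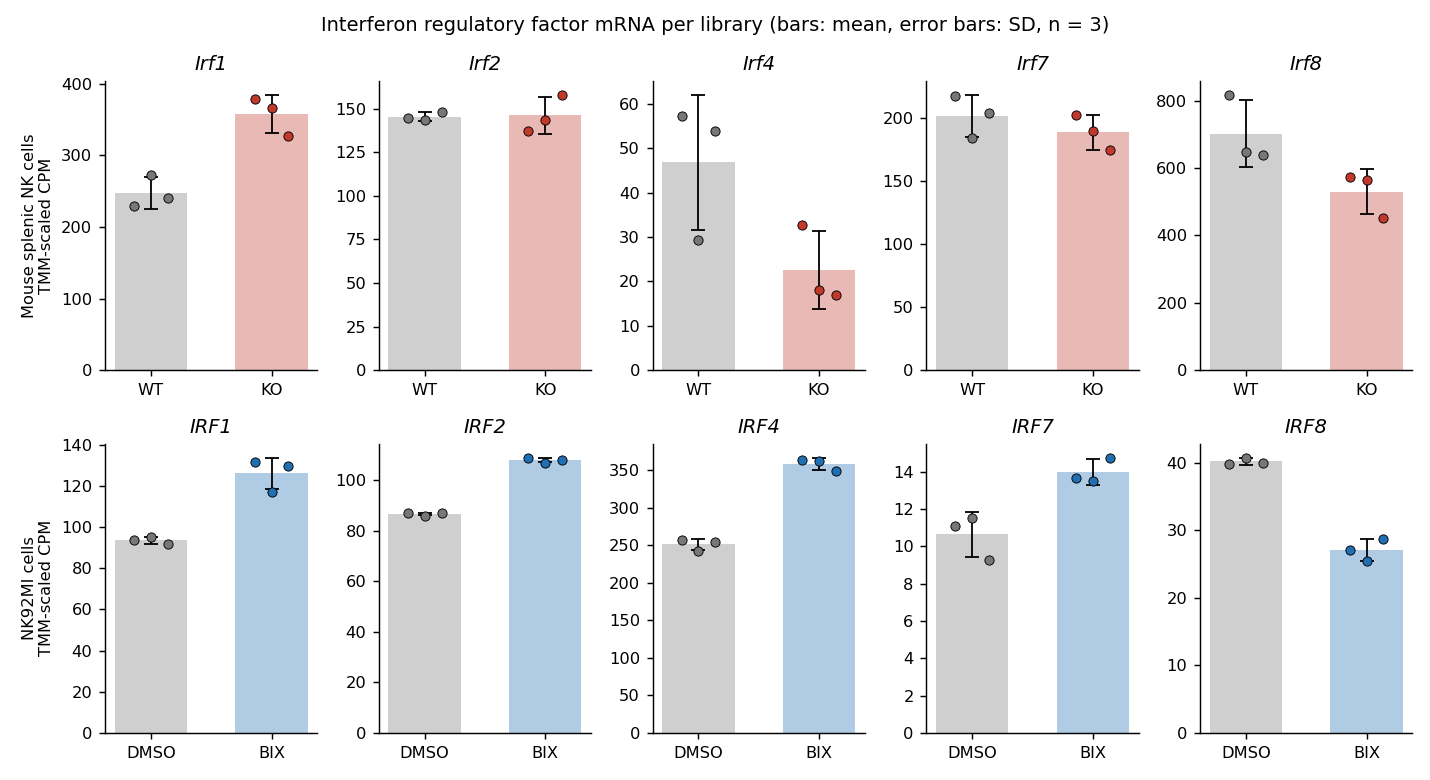
TMM-scaled CPM of the 5 factors in each library, with a separate vertical axis per gene; points are libraries, bars the group mean and error bars the SD (n = 3). The upper row shows mouse WT and KO NK cells, in which KO Irf1 sits at 327 to 379 CPM above WT at 229 to 273 CPM (a direction that turns when the libraries are scaled to NK cell markers), and the lower row NK92MI cells, in which the BIX and DMSO points do not overlap for any of the 5 genes.

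Irf4, the lymphoid factor linked to antigen receptor strength, had the widest spread of the 5 between mouse libraries. It spans bases 30749226 to 30766976 of chromosome 13 (plus strand). Its CPM was 32.6, 18.1 and 16.9 in KO and 57.2, 29.4 and 54.0 in WT. KO replicate 1 exceeded WT replicate 2, so the groups overlapped. The log2 fold change was −1.06 (SE 0.32, 95% confidence interval −1.80 to −0.31), a 2.08-fold lower level in KO, with an adjusted p of 0.0647 in edgeR and 0.00311 in DESeq2. With 1 library left out, the adjusted p in edgeR was 0.0338 without KO replicate 1 and 0.0123 without WT replicate 2, and 0.171 to 0.204 in the other 4 fits, where the log2 fold change lay between −0.95 and −0.89.

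Irf8, the myeloid partner of PU.1, spans bases 120736358 to 120756694 of chromosome 8 (plus strand). It was at 572, 565 and 453 CPM in KO and at 817, 649 and 639.9 CPM in WT. Every KO library was below every WT library. The log2 fold change was −0.41 (SE 0.14, 95% confidence interval −0.73 to −0.08) with an adjusted p of 0.0856 in edgeR and 0.0229 in DESeq2. Irf8 made up 29.8% to 33.0% of the CPM of the 9 counted Irf genes in KO and 35.1% to 40.9% in WT, whereas Irf1 made up 20.8% to 21.5% and 11.5% to 15.6%. GENCODE M21 places Gm20388 over Irf8 on the same strand. How shared reads were treated depends on the annotation and counting settings, which are not given.

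Irf4, Irf5 and Irf8 are also transcribed by B cells, macrophages and dendritic cells, and the summed markers of these cells were lower in KO. In bulk RNA, fewer cells of a type and less RNA per cell cannot be told apart. The 12 B cell markers summed to 106 to 563 CPM in KO and 612 to 1726 CPM in WT, with Cd79a the most abundant, and 12 of 12 had a negative log2 fold change. The 12 macrophage and monocyte markers summed to 1775 to 2935 CPM in KO and 2999 to 7406 CPM in WT, with Lyz2 the most abundant and 11 of 12 negative. The 10 conventional dendritic cell markers summed to 2527 to 3788 CPM in KO and 4303 to 4704 CPM in WT, with H2-Ab1 the most abundant and 9 of 10 negative. The 10 plasmacytoid dendritic cell markers summed to 318 to 424 and 534 to 1053 CPM (10 of 10 negative). In these 4 lists, in the order given, edgeR called 1 of 12, 7 of 12, 2 of 10 and 3 of 10 markers lower. Of all tested genes, 7.43% were called lower. The sums of T cell markers were 98.3 to 224 and 156 to 264 CPM, and those of neutrophil markers 14.8 to 102 and 97.2 to 888 CPM. No marker of these lists was at 0 in every library. The 12 NK cell markers summed to 10714 to 12358 CPM in KO and 5579 to 9537 CPM in WT. WT replicate 2 held the highest NK marker sum and the lowest Irf4 and Irf5 levels of the WT libraries, whereas Irf8 was lowest in WT replicate 3 (639.9 against 649 CPM), the library with the highest B cell marker sum. KO replicate 1 held the highest Irf4, Irf5 and B cell marker levels of the KO libraries. The part of these markers in the levels of Irf4, Irf5 and Irf8 was not tested. Nor was the part of NK cell content in the higher levels of Irf1, or of Ifng, Socs1 and Jak3 below.

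**Figure D2:**
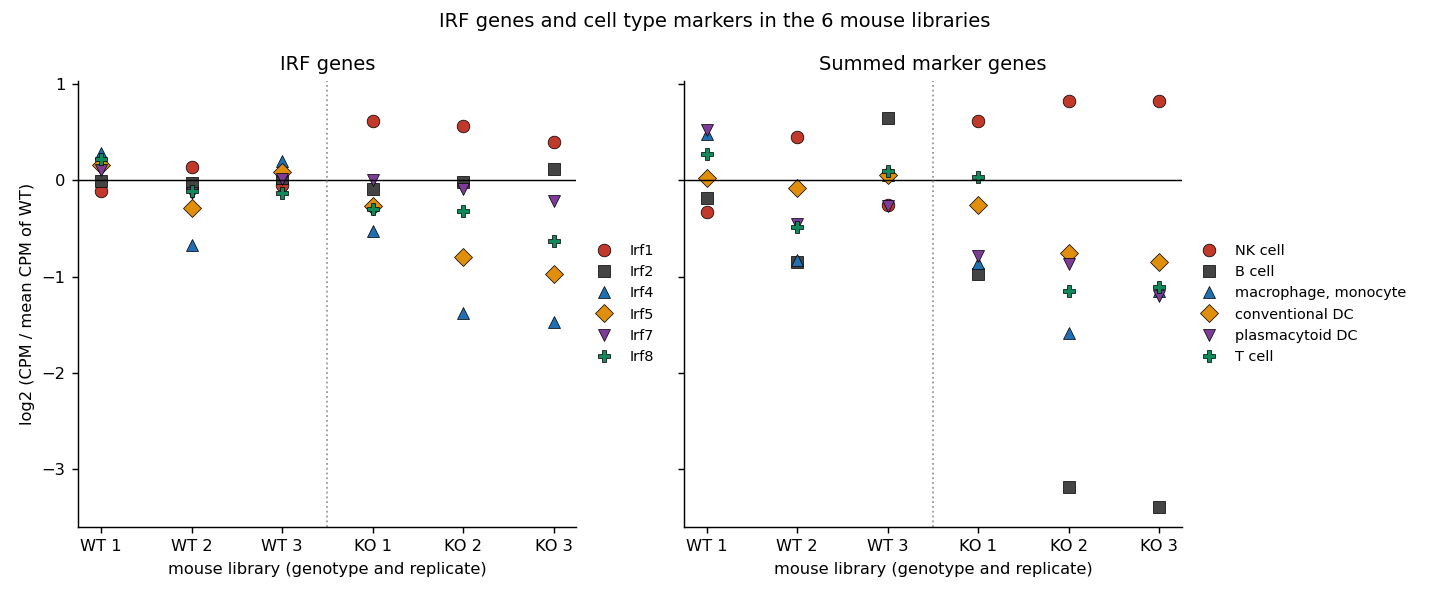
Left, 6 mouse IRF genes in each library as log2 of CPM over the WT mean; right, summed markers of NK cells, B cells, macrophages and monocytes, conventional and plasmacytoid dendritic cells (DC) and T cells on the same scale. Irf4 and Irf5 are lowest in KO replicates 2 and 3, the libraries with B cell marker sums of 122 and 106 CPM, whereas Irf1 and the NK cell markers lie above 0 in all 3 KO libraries.

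In NK92MI cells all 5 members passed the test: IRF1, IRF2, IRF4 and IRF7 were higher with BIX and IRF8 was lower. The share called among all tested genes was 36.9%, with 18.4% higher and 18.4% lower. The BIX and DMSO ranges were separate for 5 of 5 members, against 47.9% of tested genes. At the threshold of the study 2 of 5 members were called, IRF4 and IRF8, against 11.7% of tested genes. EHMT2 mRNA was also lower with BIX, at 35.8 to 40.4 CPM against 54.3 to 61.6 CPM (log2 fold change −0.58, adjusted p = 0.000101, edgeR). The DMSO columns are numbered in the table but do not show which DMSO sample each holds, and they are called columns 1 to 3 here.

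IRF1 was at 132, 117 and 129.5 CPM in BIX replicates 1, 2 and 3 and at 93.7, 95.005 and 91.95 CPM in the DMSO columns. It was 1.35-fold higher with BIX (log2 fold change 0.43, SE 0.07, 95% confidence interval 0.29 to 0.57, adjusted p = 0.000222, edgeR). BIX replicate 2 was the lowest of its group and still above every DMSO column. GENCODE 44 gives IRF1 the bases 132440440 to 132508719 of chromosome 5 (GRCh38, minus strand), and IRF1-AS1 and a longer coding gene overlap it on the opposite strand.

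IRF2 was at 109, 107 and 108 CPM with BIX and at 87.0, 86.1 and 87.0 CPM with DMSO, the narrowest groups among the 5 relative to their means. It was 1.25-fold higher (log2 fold change 0.32, SE 0.06, 95% confidence interval 0.19 to 0.45, adjusted p = 0.00113). The IRF1 to IRF2 ratio was 1.10 to 1.21 with BIX and 1.06 to 1.10 with DMSO, and BIX replicate 2 overlapped the DMSO columns in this ratio. IRF2 spans bases 184385702 to 184474558 of chromosome 4 (minus strand). IRF2-DT, a long noncoding RNA that starts on the plus strand at 184474802, just outside IRF2, was counted at 20, 24 and 22 reads with BIX and 53, 49 and 67 reads with DMSO. Its log2 fold change was −1.33 (SE 0.25, adjusted p = 0.00105), opposite in sign to that of IRF2; this gene was named after its values were seen.

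IRF7 (chromosome 11, bases 612553 to 615983, minus strand) had 224, 230 and 250 counts with BIX and 191, 197 and 157 counts with DMSO. This corresponded to 13.6, 13.5 and 14.8 CPM against 11.1, 11.5 and 9.29 CPM. The groups did not overlap, and IRF7 was 1.31-fold higher (log2 fold change 0.39, SE 0.12, 95% confidence interval 0.13 to 0.65, adjusted p = 0.0210). DMSO column 3 was the lowest library, and without it the log2 fold change was 0.30 with an adjusted p of 0.103.

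IRF4 was at 364, 363 and 348 CPM with BIX and 256, 242 and 255 CPM with DMSO. Its log2 fold change of 0.51 (SE 0.06, 95% confidence interval 0.38 to 0.64, adjusted p = 2.12e-05) was a 1.43-fold higher level. It lay just above the fold threshold of the study, and fell just below it when library totals replaced TMM (0.499) or DMSO column 2 was left out (0.486). IRF4 spans bases 391739 to 411443 of chromosome 6 (plus strand).

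IRF8 was the only member that was lower with BIX, at 27.1, 25.5 and 28.6 CPM against 39.7, 40.7 and 40.0 CPM. Every BIX library was below every DMSO column. The level was 1.48-fold lower (log2 fold change −0.57, SE 0.08, 95% confidence interval −0.75 to −0.39, adjusted p = 0.000148), and with each library left out in turn the log2 fold change stayed between −0.61 and −0.52. IRF8 spans bases 85899116 to 85922606 of chromosome 16 (plus strand). It made up 7.16% to 7.43% of the CPM of the 9 IRF genes with DMSO and 3.65% to 4.04% with BIX, whereas IRF4 made up 44.2% to 46.2% and 49.2% to 52.0%. The ratio of IRF1 to IRF8 CPM was 2.30 to 2.36 with DMSO and 4.52 to 4.86 with BIX. In mouse the same ratio was 0.28 to 0.42 in WT and 0.65 to 0.72 in KO, and the ranges did not overlap in either species. B cell markers in NK92MI cells summed to 29.0 to 32.6 CPM with BIX and 17.5 to 20.2 CPM with DMSO, most of it PAX5, and macrophage and monocyte markers to 7.16 to 11.99 CPM in all 6 libraries.

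**Figure D3:**
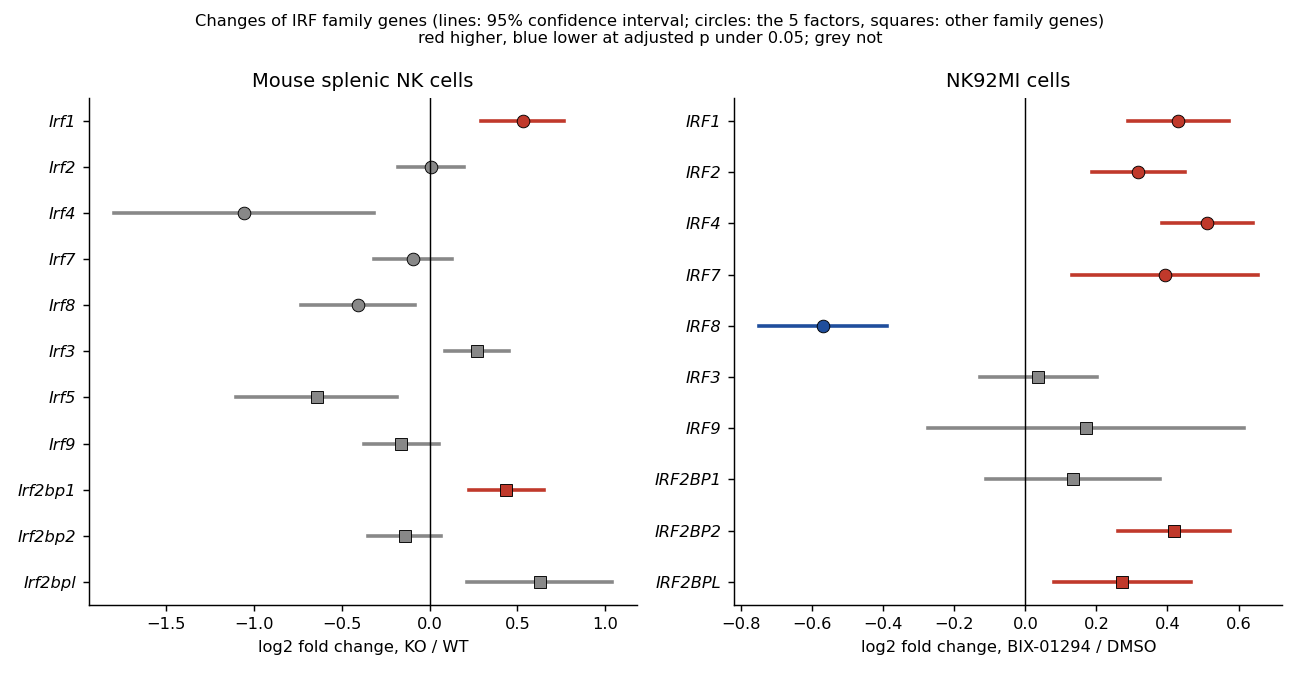
Log2 fold changes of the 5 factors (circles) and of other IRF family and IRF2-binding genes (squares), KO over WT on the left and BIX over DMSO on the right, with 95% confidence intervals; red marks genes called higher and blue genes called lower (adjusted p under 0.05). Irf1 and Irf2bp1 are the called mouse genes (0.53 and 0.44). Both turn negative when scaled to NK cell markers, which moves the median of all tested genes to −0.82. In NK92MI cells IRF8 at −0.57 is the only called gene below 0.

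Read across both comparisons, IRF1 was called higher in each (in mouse under TMM, not under the NK marker scaling), IRF8 had a negative log2 fold change in each (−0.41, not called, and −0.57), and IRF4 had estimates of opposite sign (−1.06, not called, and 0.51). The difference between the mouse and human effects was not tested, since species, cells and the way EHMT2 was removed all differ together.

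Levels of different genes can be set side by side only per length, here as CPM per kilobase of the union of annotated exons. In WT NK cells the order was Irf8 at 99.5 ± 14.2, Irf1 at 62.2 ± 5.69, Irf7 at 53.5 ± 4.43, Irf2 at 19.7 ± 0.356 and Irf4 at 9.56 ± 3.10 CPM per kilobase (SD, n = 3). The ranges of neighbours in this order did not overlap, although those of Irf1 (57.70 to 68.6) and Irf7 (48.9 to 57.66) nearly touched. In KO the means were 89.9 ± 6.79 for Irf1, 75.1 ± 9.49 for Irf8, 50.1 ± 3.68 for Irf7, 19.8 ± 1.45 for Irf2 and 4.601 ± 1.78 for Irf4. With the longest coding transcript as length, Irf8 at 186 exceeded Irf1 at 167 CPM per kilobase in KO, and their ranges over libraries overlapped, so the order of these 2 depends on the gene model. In NK92MI cells IRF4 led, at 42.1 ± 1.28 with DMSO and 60.1 ± 1.44 with BIX, under both lengths. It was followed on the exon union by IRF2 (12.9 and 16.1), IRF1 (7.63 and 10.3) and, with changed places, IRF8 (5.12 and 3.45) and IRF7 (4.07 and 5.35). With the longest coding transcript, IRF1 (26.3 and 35.5) exceeded IRF2 (19.2 and 24.0).

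**Figure D4:**
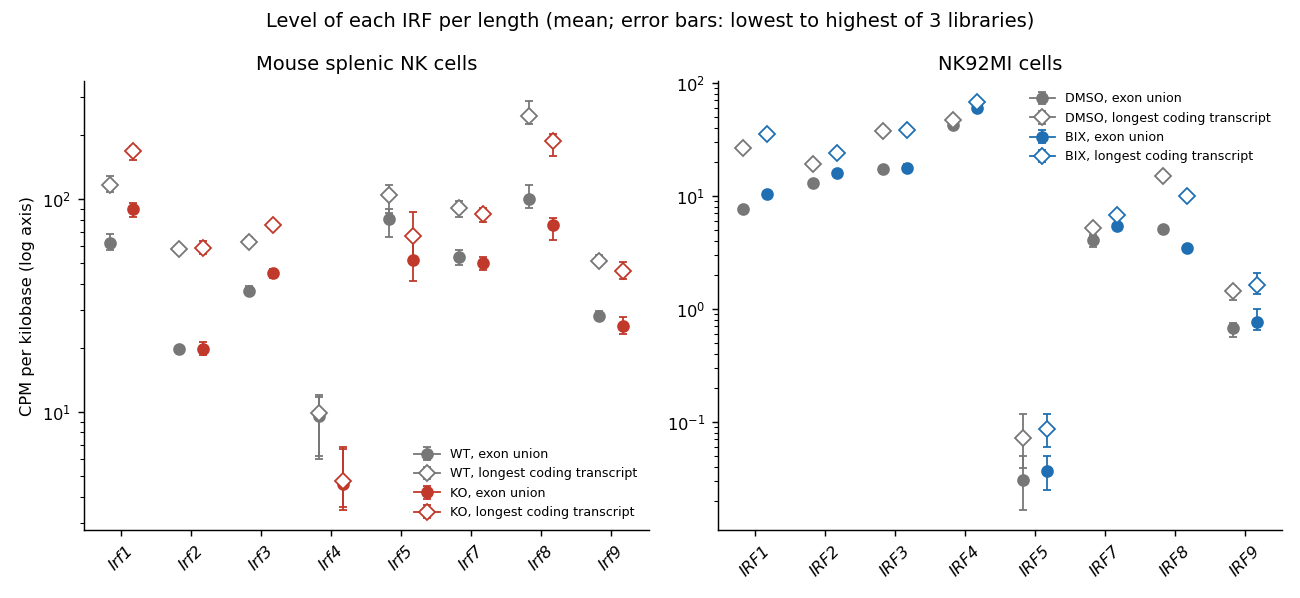
CPM per kilobase of 8 IRF genes on a log axis, with filled circles for the union of exons and open diamonds for the longest coding transcript; error bars span the lowest to the highest of 3 libraries. Irf4 lies at 9.56 (WT) and 4.601 (KO) CPM per kilobase of exon union in mouse NK cells, whereas IRF4 is the highest of the 8 genes in NK92MI cells at 42.1 (DMSO) and 60.1 (BIX) CPM per kilobase of exon union.

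The RefSeq promoter table for GRCh38.p14 held windows for 3 of the 5 human members, IRF1, IRF4 and IRF8. The windows of the called genes IRF1 and IRF4 are shown because both rose with BIX and both are GC-rich starts, with 73.7% and 74.0% G and C and 36 and 32 CpG dinucleotides in 300 bases. The IRF1 window is chr5:132490724-132491023 on the minus strand and the IRF4 window chr6:391502-391801 on the plus strand. Capitals mark the only match, on either strand, to the searched motifs, a gamma-activated site (GAS, TTCNNNGAA) in IRF1 that begins 124 bases before the start.
IRF1: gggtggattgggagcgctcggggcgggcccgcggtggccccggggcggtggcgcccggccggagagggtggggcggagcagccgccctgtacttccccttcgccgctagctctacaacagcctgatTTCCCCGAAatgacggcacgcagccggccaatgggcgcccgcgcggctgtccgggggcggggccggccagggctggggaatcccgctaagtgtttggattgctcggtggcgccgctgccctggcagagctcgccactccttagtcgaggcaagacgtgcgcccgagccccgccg
IRF4: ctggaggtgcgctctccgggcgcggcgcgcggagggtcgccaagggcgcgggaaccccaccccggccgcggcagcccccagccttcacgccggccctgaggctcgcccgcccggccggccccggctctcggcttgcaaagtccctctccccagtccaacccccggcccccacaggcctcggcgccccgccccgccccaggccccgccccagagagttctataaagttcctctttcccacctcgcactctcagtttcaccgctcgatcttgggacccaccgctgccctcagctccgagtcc
The GAS is an element bound by STAT proteins. Of 35116 promoters of the same length, 7.66% held a GAS match, 3.57% a match to the ISRE core (GAAA, any 2 bases, GAAA) and 2.82% a match to the ETS-IRF composite element (GGAA, any 2 bases, GAAA). None of these letters occurred in the IRF4 window, and the 2 IRF8 windows, which begin at 85902580 and 85902765 on chromosome 16 with 56.3% and 55.0% G and C, held no match either.

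Of the other IRF family and IRF2-binding genes, 1 of 7 rose in mouse KO and 2 of 6 tested rose with BIX, against 4.44% and 18.4% of all tested genes called higher. Irf2bp1, a corepressor that binds IRF2, was at 86.0, 98.3 and 95.6 CPM in KO and 64.2, 74.7 and 67.8 CPM in WT, with a log2 fold change of 0.44 (adjusted p = 0.0373) under TMM and −0.38 under the NK marker scaling. Irf2bpl and Irf3, the sensor-activated partner of Irf7, had log2 fold changes of 0.63 and 0.27 (adjusted p = 0.0566 and 0.0590), and both turned negative under the NK marker scaling. Irf5, a myeloid and B cell factor, was at 195, 135 and 119 CPM in KO and 262, 192 and 248 CPM in WT (log2 fold change −0.64, adjusted p = 0.0665). Irf9, the DNA-binding subunit of the ISGF3 complex, was at −0.16 (0.248) and Irf2bp2 at −0.14 (0.280). In NK92MI cells IRF2BP2 rose from 53.2 to 55.4 CPM to 66.7 to 75.9 CPM (log2 fold change 0.42, adjusted p = 0.000624), and IRF2BPL rose by 0.27 (adjusted p = 0.0279, and 0.148 without DMSO column 1). IRF3 was at 0.04 (0.748), IRF9 at 0.17 (0.555) and IRF2BP1 at 0.13 (0.391). IRF5 had 2 to 6 counts and was not tested, in contrast to the 4351 to 9695 counts of Irf5 in the sorted mouse cells.

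Among genes whose proteins bind DNA together with IRFs, 1 of 17 tested mouse genes rose and 2 fell, with a median log2 fold change of 0.04 against 0.01 over all tested genes, of which 4.44% were called higher and 7.43% lower. Spi1 (PU.1) fell by 0.95 and Spib (Spi-B) fell by 1.27 on the log2 scale (adjusted p = 0.0433 and 0.0471). Both are highly expressed in the B and myeloid cells whose summed markers were lower in KO, and the part of those cells in this result was not tested. Jund rose by 0.46 (adjusted p = 0.0461) but was at −0.35 under the NK marker scaling. In NK92MI cells 4 of 15 rose and 2 fell, with a median of 0.12 against −0.01 over all tested genes, of which 18.4% were called in each direction. The AP-1 subunits JUN, JUNB and JUND rose by 1.76, 1.35 and 0.43, and the Ikaros gene IKZF1 and the ETS gene FLI1 fell by 0.55 and 0.23. Without DMSO column 1, FLI1 had an adjusted p of 0.0725.

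Upstream of the IRFs, gamma interferon was the only listed interferon gene with enough counts to be tested in either species. The list does not hold every interferon gene. Of 16 mouse ligand and receptor genes listed, 9 had counts and 7 were tested, of which 1 rose (median 0.07, with 4.44% of all tested genes called higher). Ifng was at 39.3, 43.0 and 38.3 CPM in KO and 15.9, 25.4 and 16.2 CPM in WT (log2 fold change 1.07, adjusted p = 0.0279), and under the NK marker scaling its log2 fold change was 0.31 and not called (adjusted p = 0.298). The study reports Ifng mRNA as raised in KO NK cells by RT-qPCR. For the protein, it reports higher intracellular staining in KO splenic NK cells by flow cytometry. Of 18 human genes, 8 had counts and 5 were tested, of which 3 rose and 1 fell (median 0.55, with 18.4% of all tested genes called in each direction). IFNG was at 259, 165 and 193 CPM with BIX and 31.1, 28.4 and 35.03 CPM with DMSO (log2 fold change 2.71, adjusted p = 1.90e-08). The receptor subunits IFNAR1 and IFNGR1 rose by 0.74 and 0.55, and IL10RB, at 0.411 to 0.886 CPM with BIX and 1.05 to 1.45 CPM with DMSO, fell by 1.06 (adjusted p = 0.0438, and 0.147 without BIX replicate 1).

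Of the JAK-STAT signalling genes, 2 of 16 were called in mouse KO, both higher under TMM (median 0.04), against 11.9% of all tested genes called in either direction. Socs1, a feedback inhibitor of interferon signalling, was 0.95 higher, but 0.15 and not called under the NK marker scaling (adjusted p = 0.623). Jak3, the kinase of the common gamma chain, was 0.72 higher, but at −0.13 under that scaling. In NK92MI cells 3 of 15 rose and 3 fell (median 0.10), or 6 of 15 called against 36.9% of all tested genes. PIAS1 and STAT3 rose by 0.39 and 0.37, and STAT5B, JAK1 and STAT6 fell by 0.57, 0.27 and 0.25. Without BIX replicate 1, STAT6 had an adjusted p of 0.1097.

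Among nucleic acid sensors and adaptors that activate IRF3 and IRF7, 1 of 24 rose and 4 fell in mouse KO (median 0.01), against 4.44% and 7.43% of all tested genes. Tlr9, Ifih1, Unc93b1 and Tlr8 fell by 1.12, 0.62, 0.89 and 1.23, and Tmem173 (STING) was 0.32 higher under TMM and at −0.51 under the NK marker scaling. Tlr8, Tlr9 and Unc93b1, the endosomal receptors and their chaperone, are typical of B, myeloid and dendritic cells, and the part of those cells was not tested. In NK92MI cells 8 of 20 rose and 5 fell (median −0.03), against 18.4% of all tested genes in each direction. The 5 with the smallest adjusted p among those that rose were CGAS (0.63), IFIH1 (0.49), TASL (1.28), TRAF3 (0.37) and SLC15A4 (0.47), of which TASL and SLC15A4 form the adaptor complex for IRF5. The 5 that fell were IKBKE (−0.76), IRAK1 (−0.33), IFI16 (−0.26), DHX58 (−0.34) and ZBP1 (−0.31). The calls of DHX58 (adjusted p = 0.112 without BIX replicate 1) and ZBP1 (0.0902 without DMSO column 2) were lost with 1 library left out.

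Downstream, the type I interferon targets had a median log2 fold change of −0.33 in mouse KO, with 21 of 29 below 0. By the test 2 of 29 rose and 1 fell, against 4.44% and 7.43% of all tested genes. The summed markers of B cells, macrophages and dendritic cells were lower in KO as well, and the part of those cells in the shift of the list was not tested. Ifit1bl1 rose by 0.79 and Trim21 by 0.39, both negative under the NK marker scaling (−0.06 and −0.43), and Ifih1, which is also a sensor, was the gene that fell. In NK92MI cells 9 of 30 rose and 5 fell (median 0.09), against 18.4% of all tested genes in each direction. RSAD2, the antiviral enzyme viperin, rose by 1.27, IFI44L by 0.996, OAS1 by 0.62, IFIH1 by 0.49 and PARP9 by 0.41, whereas OASL, CMPK2, SAMD9, IFI44 and IFI35 fell by 0.39, 0.25, 0.28, 0.32 and 0.32. Of these 5, only OASL passed the test with each library left out in turn, and CMPK2, SAMD9 and IFI44 were lost without DMSO column 1 (adjusted p = 0.0661, 0.0923 and 0.0894) and IFI35 without DMSO column 2 (0.152).

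Targets of IRF1 and gamma interferon were called higher in 8 of 29 genes in mouse KO and lower in 1 (median 0.12), against 4.44% and 7.43% of all tested genes. Besides Socs1 (0.95, and 0.15 under the NK marker scaling), the 4 with the smallest adjusted p among those higher under TMM were Gbp6 (0.79), Gbp4 (0.54), Psmb10 (0.33) and Nlrc5 (0.58), the last 2 of which encode an immunoproteasome subunit and the MHC class I transactivator; under the NK marker scaling these 4 were at −0.05, −0.26, −0.50 and −0.25. Ciita, the MHC class II transactivator of antigen presenting cells, fell by 1.10. In NK92MI cells 12 of 26 rose and 3 fell (median 0.22), against 18.4% of all tested genes in each direction. APOL3, GBP4, B2M, TAP1 and APOL1 rose by 1.004, 0.74, 0.73, 0.64 and 0.63. PSMB10 and NLRC5, which were higher in mouse KO under TMM, fell by 0.92 and 0.45 with BIX, as did CASP1 by 0.52.

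Of genes tied to IRF4 and antigen receptor activation, 1 of 17 was called in mouse KO, Rel, which fell by 0.34 (median −0.08, with 11.9% of all tested genes called). In NK92MI cells 11 of 15 rose and 1 fell, with a median of 0.57 against −0.01 over all tested genes and 18.4% of all genes called higher. IL2RA, RELB, ICOS, BCL6 and CTLA4 rose by 0.89, 1.39, 0.68, 0.86 and 1.23, and XBP1, the plasma cell and secretory factor, fell by 0.95. NK92MI cells make their own interleukin-2, and CD3E, a T cell gene, was their most abundant T cell marker.

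**Figure D5:**
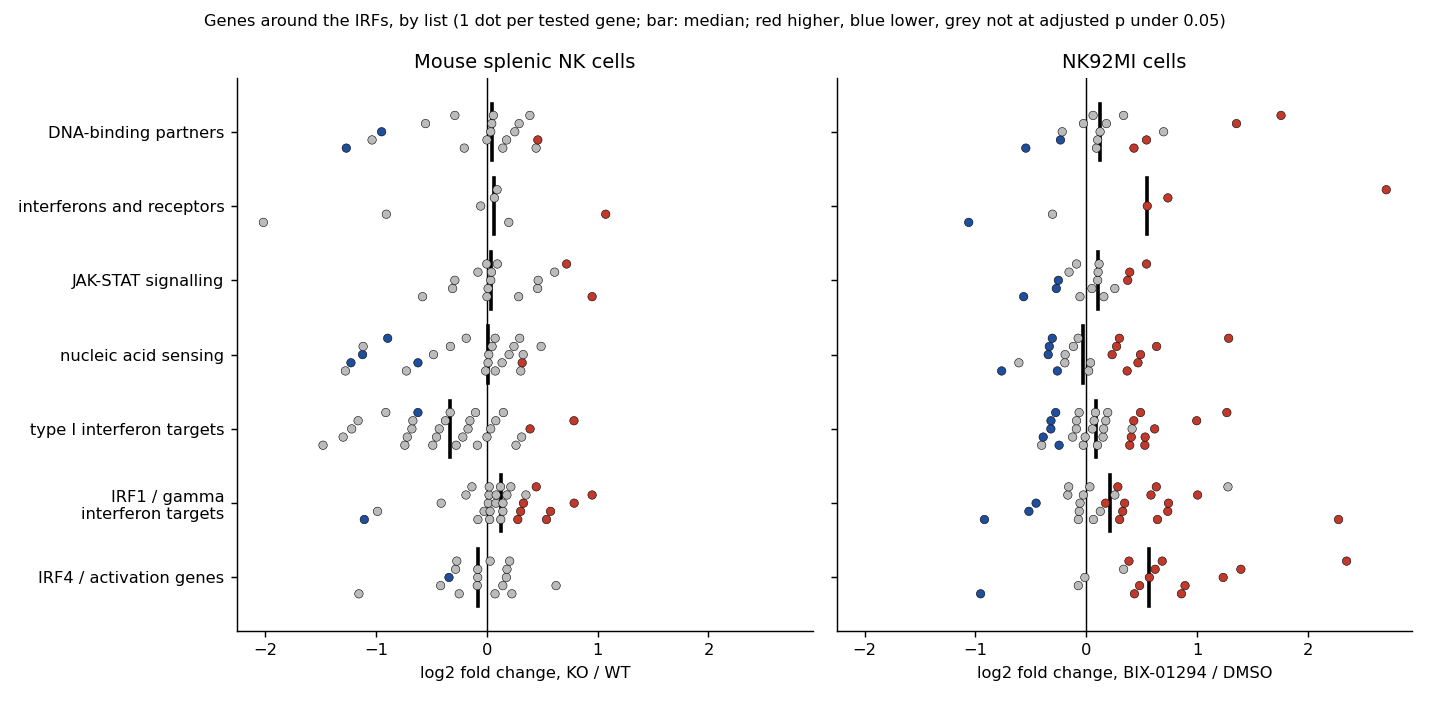
Log2 fold change of each tested gene in 7 lists of IRF partners, inducers and targets, KO over WT on the left and BIX over DMSO on the right; black bars are list medians, red dots genes called higher and blue dots genes called lower (adjusted p under 0.05). The widest gap between panels is in the IRF4 and activation list, with medians of −0.08 in mouse and 0.57 in NK92MI cells, a difference that was not tested.

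The genes whose log2 CPM profile over the 6 libraries of a species was closest to each member were found by the root mean square difference after centring. Among 11984 mouse genes Irf1 was nearest to Chkb (0.05), Dffb and Atg4d, and Irf2 to Sdha (0.02), Msn and Rab8b. Irf7 was nearest to Abhd17b (0.02), Ntan1 and Lpxn, and Irf8 to Chaf1b (0.04), Shb and Ranbp1. Irf4 was nearest to Plac8 (0.07), Lrrc25 and Ltbr, which had log2 fold changes of −0.95, −1.21 and −1.13. Among 11686 human genes IRF1 was nearest to IRF2BP2 (0.02), CCDC47 and ZBTB8OS, and SPRYD7 and YTHDF1 (both 0.02) were among the nearest to IRF2. IRF4 was nearest to DNAJC6 (0.02), ACBD3 and STX7, IRF7 to ITPKC (0.04), P4HA1 and HTATIP2, and IRF8 to DDX54 (0.02), GTF3A and ACOT2. The points share libraries and depth, and the lists are a description over 6 libraries.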

How the data were processed

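Reads of sorted mouse splenic NK cells and NK92MI cells were trimmed by the authors with fastp 0.23.4, aligned with STAR 2.7.11b to GRCm38 or GRCh38 allowing 2 mismatches, and counted with HTSeq 2.0.3. The deposited values are raw counts per gene symbol. Annotation release and strand setting are not given in the sources used here, and positions and lengths were taken from GENCODE M21 and 44.

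Each species was fitted over its whole table with edgeR 4.0.16 (R 4.3.3) after TMM and filterByExpr (13189 of 22021 mouse and 12727 of 18304 human genes), with a two-sided quasi-likelihood test and Benjamini-Hochberg adjustment. No covariate was used. Alternatives were DESeq2 1.42.0, limma-voom (limma 3.58.1), other size factors and filters, leaving out each library, the replicate number as a block and, in mouse, scaling to NK markers. The procedure was tested on simulated data. For the mouse comparison with 200 changed genes, DESeq2 made 40 false calls and edgeR 8. They recovered 83% and 69% of the genes changed by a log2 fold change of 1. The simulated counts used dispersions estimated by edgeR and were drawn separately for each gene. They hold no shifts in cell content between libraries, so they cannot give the rate of false calls of either tool in the real libraries. Same-numbered mouse libraries did not all deviate together, so the numbers were not taken as pairs. At these depths counting error is small except for genes with few counts.

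The members, gene lists and tests were chosen with earlier results of these data known. Genes named are all members, other IRF family genes, up to 5 called genes per list and direction, and the 3 nearest profiles. Samples were grouped by title, not by the genotype label. Promoters of IRF2, IRF7 and the mouse genes, and the chromatin data, were not analysed here, and a few genes of the lists are not reported here, although they are in the counts of the lists.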

Additional observations from a re-analysis of the deposited data

How the results depend on the processing

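With each mouse library left out in turn, genes called higher ranged from 0 (without KO replicate 2) to 1433 (without WT replicate 2), genes called lower from 0 to 2097, genes at the threshold of the study from 0 to 1163, and called Irf members from 0 to 2 (0 to 1 at the threshold of the study). The log2 fold changes ranged from 0.48 to 0.61 for Irf1, −0.053 to 0.046 for Irf2 and −1.43 to −0.89 for Irf4. Of 13189 genes fitted, DESeq2 called 1098 higher and 1989 lower, 1495 at the threshold of the study, with 3 and 2 members. It put Irf4 at −1.07 (adjusted p = 0.00311) and Irf8 at −0.42 (0.0229). At the threshold of the study, 34 genes were called without the filter and 3 by limma-voom. Irf2 was at −0.0042 with DESeq2 size factors and in DESeq2 and at −0.0031 with a mean CPM of at least 1. Scaling to NK markers gave 35 higher and 8620 lower genes of 13189 tested, 3519 at the threshold of the study, and called 4 and 3 members. The log2 fold changes under it were −0.28 for Irf1, −0.83 for Irf2, −1.94 for Irf4, −0.94 for Irf7 and −1.25 for Irf8. This scaling also turned Irf3 to −0.55, Irf2bp1 to −0.38, Irf2bpl to −0.17, Jund to −0.35, Jak3 to −0.13, Tmem173 to −0.51, Ifit1bl1 to −0.056, Trim21 to −0.43, Gbp4 to −0.26, Gbp6 to −0.048, Gbp7 to −0.37, Tap2 to −0.55, Psmb10 to −0.50, Nlrc5 to −0.25 and Casp1 to −0.52. By construction it sets the NK marker list, which is higher in KO under TMM, to no change. Il2rb, the most abundant gene of that list, and Prf1 are reported by the study as raised in KO by RT-qPCR. A higher share of NK cells and an effect of the knockout on these markers cannot be told apart here. Same-numbered mouse libraries had correlations of deviations of 0.28, 0.35 and −0.19. With the replicate number as a block, 1297 higher and 1941 lower genes of 13465 tested, 829 at the threshold of the study, and 3 and 1 members were called. Irf4 was then at −1.06 (adjusted p = 0.0122) and Irf8 at −0.40 (0.0277). No paired analysis was possible in NK92MI cells because the DMSO columns carry no link to numbered samples. With human libraries left out, 1 to 2 members passed the threshold of the study, as 1 did with library totals, IRF7 ranged from 0.30 to 0.45, IRF3 from −0.024 to 0.088 and IRF9 from −0.045 to 0.29. With the longest coding transcript as length, 1 (BIX), 3 (DMSO) and 3 (KO) of 5 members kept their place in the order of levels. The causes were not tested.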
